A study of Arabidopsis thaliana with 9 samples.

Results

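Roots of 4-day-old Arabidopsis seedlings with altered activity of bHLH49, a basic helix-loop-helix transcription factor, were examined here for 8 genes of the root epidermis. The genes were chosen by locus, with earlier results of these data known: the expansins EXPA7 (AT1G12560) and EXPA18 (AT1G62980), the class III peroxidases PRX7 (AT1G30870), PRX44 (AT4G26010), PRX73 (AT5G67400), PRX60 (AT5G22410) and PRX35 (AT3G49960), and the fate regulator TRY (AT5G53200). Of the 8 loci, 6 had a probe set with exactly 1 gene among the 16722 such probe sets of the platform annotation and 38408 probe sets in all. These were EXPA7, EXPA18, PRX7, PRX44, PRX35 and TRY, each with 1 probe set whose values repeated those of no other. The annotation used paired no probe set with PRX73 or PRX60, which were not analysed here.

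Total RNA was measured on 9 single-channel arrays, with 3 arrays each from a bHLH49 overexpressor, a bHLH49 mutant titled as loss of function, and the wild type. All plants were of the Col-0 ecotype and grew for 4 days on half-strength Murashige and Skoog medium, with kanamycin or phosphinothricin where transgenic seed was selected; which seedlings had been on selection is not given in the labels. Nor do the labels give the mutant allele, the promoter of the overexpressor, the number of lines or whether repeats were separate sowings, and p-values therefore reflect array-to-array spread alone, which may be technical. The source label speaks of root tips and the tissue label of roots.

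Root hairs are tubular outgrowths of epidermal cells called trichoblasts, which in Arabidopsis lie over the cleft between underlying cortical cells, while the remaining epidermal cells stay hairless. Hairless fate is set by a complex of MYB, bHLH and WD-repeat proteins that switches on GLABRA2, and small MYB proteins such as TRY and CAPRICE move to neighbouring cells, compete for the bHLH partner and so allow hair fate there. Once a hair grows out, expansins loosen its wall at the growing tip and class III peroxidases act on extensins and on the reactive oxygen of the wall. The wall genes in this set therefore mark cells that are already making hairs, whereas TRY acts upstream, in the choice of fate.

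The deposited log2 values were similar in distribution on all arrays, with medians between 5.85 and 5.92, and any pair of arrays correlated at 0.988 to 0.993 across probe sets. Between overexpressor and wild type 1.35% of all probe sets passed an adjusted p of 0.05 (limma, Benjamini-Hochberg over all probe sets), between mutant and wild type 0.0234%, and between overexpressor and mutant 1.83%. No probe set was paired with bHLH49 itself (AT1G68920), so the genotype labels were not checked by its transcript. BGLU23, an abundant beta-glucosidase of the root and the 1 measured of 9 root markers, lay between 12.99 and 13.22 on the log2 scale on all 9 arrays. The arrays come from whole tissue, so fewer hair cells and less RNA per hair cell cannot be told apart.

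TRY carried the change that passed the test: it was lower in the overexpressor than in both other genotypes, while the 5 wall genes differed by small amounts that did not pass. TRY had log2 values of 5.93, 5.65 and 5.73 in overexpressor roots, 6.36, 6.88 and 6.52 in mutant roots, and 6.73, 6.58 and 6.53 in wild-type roots. The 3 overexpressor arrays lay below all 6 others, and the mutant arrays spanned those of the wild type. TRY fell by 0.85 ± 0.14 on the log2 scale in the overexpressor against wild type (SE, n = 3 each; limma adjusted p = 0.0323), to 0.556 times the wild-type value with a 95% interval of 0.445 to 0.696. Against the mutant it fell by 0.82 ± 0.14 (SE; limma adjusted p = 0.032), to 0.568 times the mutant value (95% interval 0.454 to 0.71). Between mutant and wild type the log2 difference was -0.03 ± 0.14 (SE; limma adjusted p = 0.971), with a 95% interval from -0.35 to 0.29. The order of its levels was thus overexpressor, mutant, wild type from low to high, and mutant and wild type did not differ beyond their spread. Both calls were lost in 7 of 9 refits that left out 1 array, with the log2 difference from wild type between -0.92 and -0.79 and adjusted p up to 0.119. The call against the mutant was also lost with only the 6 arrays compared (limma adjusted p = 0.107). Fitting the repeat number as a block ended both calls (limma adjusted p = 0.112 against wild type).

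**Figure D1:**
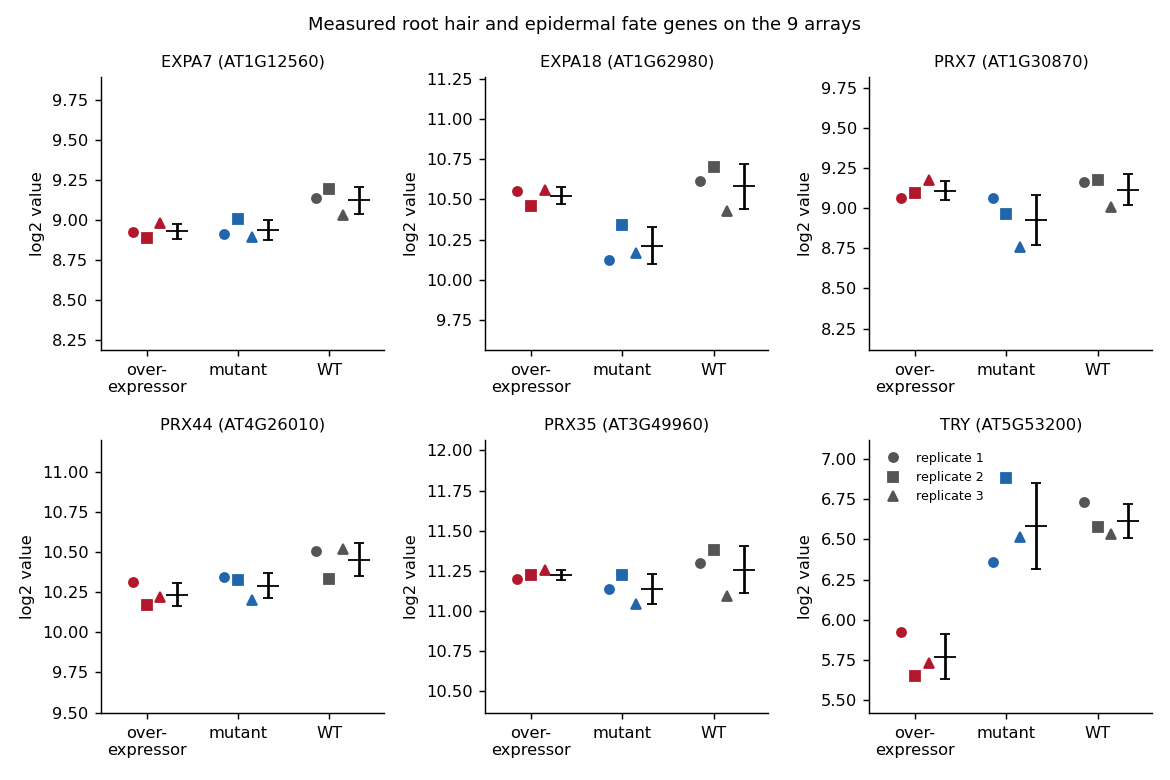
Log2 values of the 6 measured genes on each array, by genotype (overexpressor, mutant, wild type). Symbols give the replicate number, the black bars the mean ± SD of 3 arrays, and every panel spans the same height in log2 units. TRY lies between 5.65 and 5.93 on the overexpressor arrays and between 6.36 and 6.88 on the other 6, while each wall gene stays within 0.58 log2 units over all 9 arrays.

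The expansins EXPA7 and EXPA18, which loosen the wall and are known for expression in root hair cells, were bright on the arrays, above the upper quartile of every array. EXPA7 had log2 values of 8.92, 8.89 and 8.98 in the overexpressor, 8.91, 9.01 and 8.89 in the mutant, and 9.14, 9.19 and 9.03 in the wild type. Arrays of both altered lines lay below all 3 wild-type arrays, and the altered lines overlapped each other. The log2 difference from wild type was -0.19 ± 0.06 in the overexpressor (SE; limma adjusted p = 0.244) and -0.18 ± 0.06 in the mutant (limma adjusted p = 0.52). Overexpressor and mutant differed by -0.01 on the log2 scale, with a 95% interval from -0.15 to 0.14.

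EXPA18 had log2 values of 10.55, 10.46 and 10.56 in the overexpressor, 10.12, 10.34 and 10.17 in the mutant, and 10.61, 10.70 and 10.43 in the wild type. Here the mutant arrays stood apart, below all arrays of both other genotypes, and the overexpressor overlapped the wild type. The mutant differed from wild type by -0.37 ± 0.09 on the log2 scale (SE), or 0.774 times the wild-type value with a 95% interval of 0.671 to 0.892, without passing over all probe sets (limma adjusted p = 0.367). The overexpressor differed from the mutant by 0.31 ± 0.09 (limma adjusted p = 0.149) and from wild type by -0.06 ± 0.09 (limma adjusted p = 0.838). In rank of genotypes the pair therefore differed: EXPA7 was highest in wild type with both altered lines close together, and EXPA18 was lowest in the mutant with the others close together. Whether the pair responded differently was not tested.

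The 3 measured peroxidases, which use or make hydrogen peroxide in the wall, had log2 differences of at most 0.22 in size. PRX44, a peroxidase known to take part in root hair growth, had log2 values of 10.31, 10.17 and 10.22 in the overexpressor, 10.34, 10.33 and 10.20 in the mutant, and 10.50, 10.33 and 10.52 in the wild type. The overexpressor arrays lay just below the wild-type arrays (highest 10.31, lowest 10.33), and the mutant arrays overlapped both. Its difference from wild type was -0.22 ± 0.07 in the overexpressor (SE; limma adjusted p = 0.258) and -0.16 ± 0.07 in the mutant (limma adjusted p = 0.617).

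PRX7 had log2 values of 9.06, 9.09 and 9.18 in the overexpressor, 9.06, 8.97 and 8.76 in the mutant, and 9.17, 9.17 and 9.01 in the wild type. Overexpressor and wild type overlapped, at a log2 difference of -0.01 with a 95% interval from -0.21 to 0.20, and 2 of the 3 mutant arrays lay below all arrays of both other genotypes. PRX7 differed by -0.19 ± 0.09 between mutant and wild type (SE; limma adjusted p = 0.622) and by 0.18 ± 0.09 between overexpressor and mutant (limma adjusted p = 0.395).

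PRX35 had log2 values of 11.20, 11.22 and 11.25 in the overexpressor, 11.14, 11.23 and 11.04 in the mutant, and 11.30, 11.38 and 11.09 in the wild type. All 3 genotypes overlapped. The difference from wild type was -0.03 ± 0.08 in the overexpressor (SE; limma adjusted p = 0.912) and -0.12 ± 0.08 in the mutant (limma adjusted p = 0.741), and overexpressor and mutant differed by 0.09 (95% interval -0.11 to 0.28). For PRX35 the intervals thus exclude, before any correction for the number of probe sets, a change of more than 0.32 log2 units in each comparison.

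**Figure D2:**
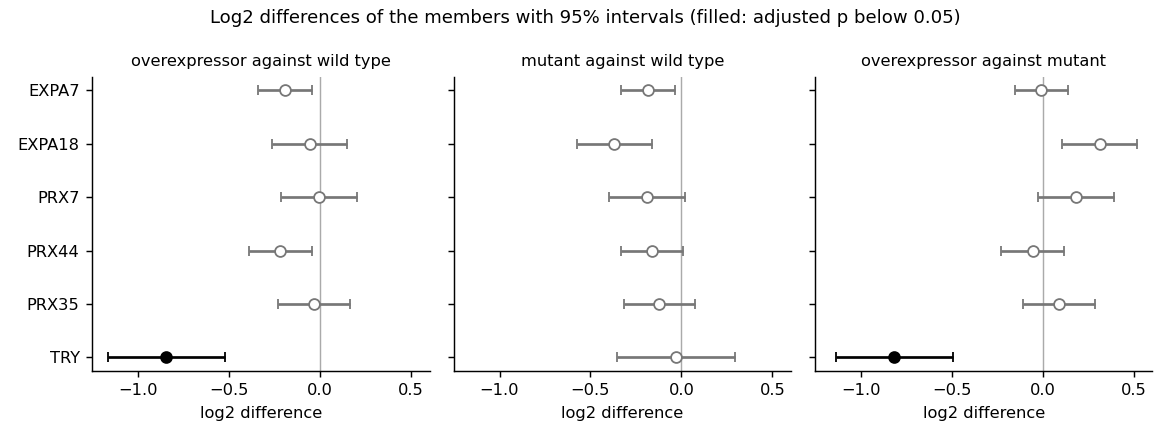
Log2 differences of the 6 measured genes in the 3 comparisons, with the 95% intervals of the limma fit on the horizontal axis, not corrected for the number of probe sets. Filled points mark the differences that passed over all probe sets, which are those of TRY in the overexpressor against wild type (-0.85) and against the mutant (-0.82).

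Counted together, 1 of the 6 measured genes fell and 0 rose in the overexpressor against wild type, where 0.609% of all probe sets fell. These genes, and the lists used further on, were chosen with earlier results of these data known. Their counts are therefore not an independent comparison with all probe sets. Their median log2 difference was -0.12 (-0.08 without wild-type replicate 2), against -0.01 over all probe sets, and 6 of 6 were below 0 as were 51.8% of all probe sets. Arrays of the overexpressor lay wholly below those of the wild type for 3 of the 6, EXPA7, PRX44 and TRY, as they did for 10.7% of all probe sets. Unadjusted p was below 0.05 for these 3, as for 13.6% of all probe sets. TRY stood at percentile 0.57 of the changes of all probe sets, PRX44 at 11.9, EXPA7 at 14.2, and the other members between 36.1 and 50.0.

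In the mutant against wild type 0 of the 6 passed limma's test, where 0.0234% of all probe sets did. Unadjusted p was below 0.05 for EXPA7 and EXPA18, as it was for 8.44% of all probe sets. All 6 were below 0, as were 49.6% of all probe sets, with a median of -0.17 for the 6 (-0.11 without mutant replicate 3) against 0.00 over all. The 5 wall genes had differences between -0.37 and -0.12, and for EXPA7 and EXPA18 the mutant arrays lay wholly below the wild-type arrays, as for 6.04% of all probe sets. Both comparisons with wild type use the same 3 wild-type arrays, so the low values of both altered lines are not independent of each other.

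The overexpressor against the mutant does not involve the wild-type arrays in its difference. There 1 of the 6, TRY, fell and 0 rose, where 0.857% of all probe sets fell. The wall genes stood on both sides of 0, with EXPA18, PRX7 and PRX35 above it and EXPA7 and PRX44 below, between -0.06 and 0.31. EXPA18 was the 1 member whose overexpressor arrays all lay above the mutant arrays, as for 9.31% of all probe sets, and TRY the 1 whose arrays all lay below them, as for 11.2%. A moderated F test over the 3 genotypes passed for TRY (limma adjusted p = 0.0376) and for 0 of the wall genes, of which EXPA18 came nearest (limma adjusted p = 0.152), where 1.53% of all probe sets passed. EXPA7, EXPA18 and PRX44 had an unadjusted p below 0.05 in that F test, as did 14.7% of all probe sets.

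**Figure D3:**
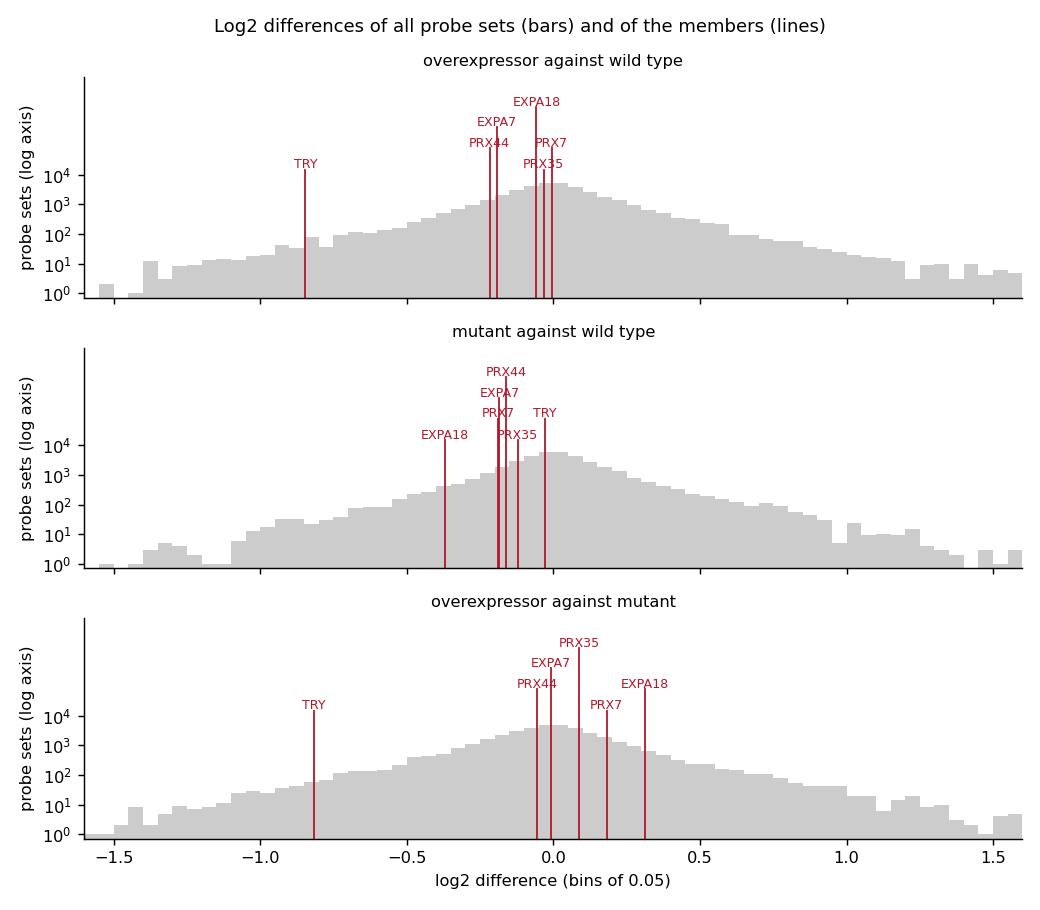
Log2 differences of all 38408 probe sets in bins of 0.05 (grey bars, log axis) with the 6 measured genes as red lines, whose heights only separate the names. The axis is limited to 1.6 on either side of 0 and leaves out 35, 14 and 39 probe sets from top to bottom. TRY lies in the lower tail in both comparisons that involve the overexpressor, and the wall genes lie between percentiles 3.5 and 93.1 in all 3.

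Within a genotype, some wall genes moved together from array to array. Over the 9 arrays, deviations from the genotype means correlated at 0.95 between EXPA7 and EXPA18, 0.91 between EXPA7 and PRX35 and 0.85 between EXPA18 and PRX35, a description of genes that share the RNA and normalization of each array. PRX44 did not follow these, at -0.21 with EXPA7, -0.24 with EXPA18 and -0.28 with PRX35. PRX7 lay between, at 0.60 with EXPA7, 0.38 with EXPA18, 0.74 with PRX35 and 0.14 with PRX44. Wild-type replicate 3 held the lowest wild-type value for 4 of the 5 wall genes and the highest for PRX44, and mutant replicate 3 held the lowest mutant value for 4 of the 5, all but EXPA18. Without mutant replicate 3 the mutant's differences from wild type were -0.35 for EXPA18, -0.16 for EXPA7, -0.10 for PRX7, -0.12 for PRX44 and -0.07 for PRX35. Without wild-type replicate 3 they were -0.45, -0.23, -0.24, -0.13 and -0.20 in the same order of genes. Wild-type replicate 2 held the highest wild-type value for 4 of the 5 wall genes. Without it the mutant's differences from wild type were -0.31, -0.15, -0.16, -0.22 and -0.06 in that order. The part of these arrays' position in the results was not tested.

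**Figure D4:**
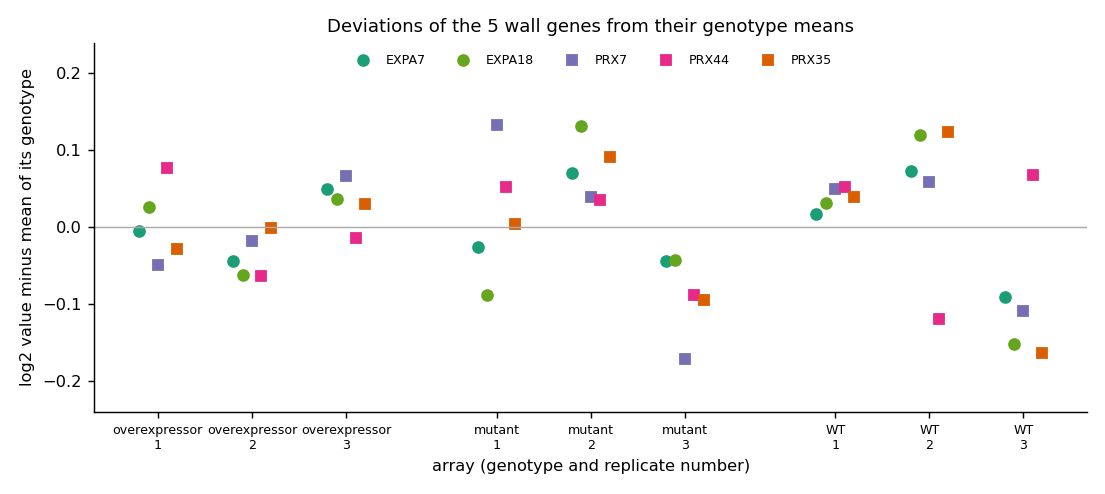
Deviation of each of the 5 wall genes from the mean of its own genotype, in log2 units, on each of the 9 arrays (overexpressor, mutant, wild type). On wild-type replicate 3 the other wall genes lie below 0 and PRX44 above it, and on mutant replicate 3 all 5 lie below 0.

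TRY acts through a circle of regulators of epidermal fate, of which 3 of 16 listed others were measured. The bHLH gene MYC1 (AT4G00480), whose product belongs to the same group of bHLH proteins as GL3 and EGL3 and takes part in hairless fate, also fell in the overexpressor. MYC1 had log2 values of 5.25, 5.30 and 5.16 in the overexpressor, 5.87, 5.81 and 5.95 in the mutant, and 5.78, 6.01 and 5.97 in the wild type. The 3 overexpressor arrays lay below all 6 others by more than the span of any genotype. MYC1 fell by 0.68 ± 0.08 against wild type (SE, n = 3 each; limma adjusted p = 0.00844), to 0.624 times its value (95% interval 0.55 to 0.708), and by 0.64 ± 0.08 against the mutant (limma adjusted p = 0.00873). Both calls remained in all 9 refits without 1 array. Between mutant and wild type MYC1 differed by -0.04 (95% interval -0.23 to 0.14). GEM (AT2G22475), which modulates GLABRA2 expression, and JKD (AT5G03150), a zinc finger protein of the cortex that acts on epidermal fate from below, stood at -0.07 and 0.01 in the overexpressor against wild type and at -0.02 and 0.08 in the mutant against wild type, without passing. Of these 3 fate regulators 1 fell, 0 rose and 2 did not pass in the overexpressor against wild type, where 0.609% of all probe sets fell. In the mutant against wild type 0 of the 3 passed limma's test, where 0.0234% of all probe sets did. Unadjusted p was below 0.05 for 0 of the 3 there, where it was for 8.44% of all probe sets.

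Of 10 listed transcription factors of root hair growth, 2 were measured, and both were dim. RSL5 (AT5G43175) lay below the lower quartile of all 9 arrays and RSL3 (AT2G14760) below that of 4. Of these 2 genes, 0 passed in any comparison. Of all probe sets 1.35% passed between overexpressor and wild type, 0.0234% between mutant and wild type and 1.83% between overexpressor and mutant. The log2 differences of RSL5 and RSL3 were 0.28 and 0.00 in the overexpressor against wild type, and -0.01 and -0.42 in the mutant against wild type. In the overexpressor against the mutant they were 0.29 and 0.42. There the overexpressor arrays lay wholly above the mutant arrays for both genes, as for 9.31% of all probe sets.

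Of 38 listed genes of root hair growth and wall, 4 were measured: FER (AT3G51550), a receptor kinase needed for hair growth, SCN1 (AT3G07880), a RhoGDI that restricts hairs to 1 site per cell, CSLD2 (AT5G16910), a cellulose synthase-like protein, and XTH26 (AT4G28850), a xyloglucan endotransglucosylase. None passed in any of the 3 comparisons in limma's main fit. The shares of all probe sets that passed were 1.35% (overexpressor against wild type), 0.0234% (mutant against wild type) and 1.83% (overexpressor against mutant). In the mutant against wild type 2 of 4 had an unadjusted p below 0.05 (SCN1 and XTH26), as did 8.44% of all probe sets. In the overexpressor against the mutant 2 of 4 did (FER and XTH26), as did 15.1% of all probe sets. In the overexpressor against wild type 0 of 4 had an unadjusted p below 0.05, where 13.6% of all probe sets did. XTH26 had log2 values of 7.63, 7.51 and 7.51 in the overexpressor, 6.84, 6.83 and 6.25 in the mutant, and 7.62, 7.73 and 7.13 in the wild type. The 3 mutant arrays lay below the 6 others, like those of EXPA18. XTH26 differed by -0.86 ± 0.20 between mutant and wild type (SE; limma adjusted p = 0.365) and by 0.91 ± 0.20 between overexpressor and mutant (limma adjusted p = 0.0727). That second difference passed with eBayes trend and robust (limma adjusted p = 0.046), with dim probe sets below the 50th percentile filtered out (limma adjusted p = 0.0297) and when probe sets with 1 gene were tested alone (limma adjusted p = 0.0379). In 6 of 9 such settings it did not pass (limma adjusted p up to 0.11). Nor did it pass in any of 9 refits that left out 1 array (limma adjusted p 0.0562 to 0.182).

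FER, SCN1 and CSLD2 had log2 differences of -0.15, -0.19 and -0.15 between mutant and wild type. For all 4 growth genes the mutant arrays lay wholly below the wild-type arrays, where 6.04% of all probe sets did, and their median difference was -0.17 against 0.00 over all probe sets. The gap was narrow for FER (highest mutant array 11.258, lowest wild-type array 11.259), SCN1 (10.247 and 10.269) and CSLD2 (9.148 and 9.172). Against the mutant the overexpressor stood higher by 0.23 for FER, 0.06 for SCN1 and 0.09 for CSLD2. Against wild type the overexpressor's differences were between -0.13 and 0.08 for the 4 genes.

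**Figure D5:**
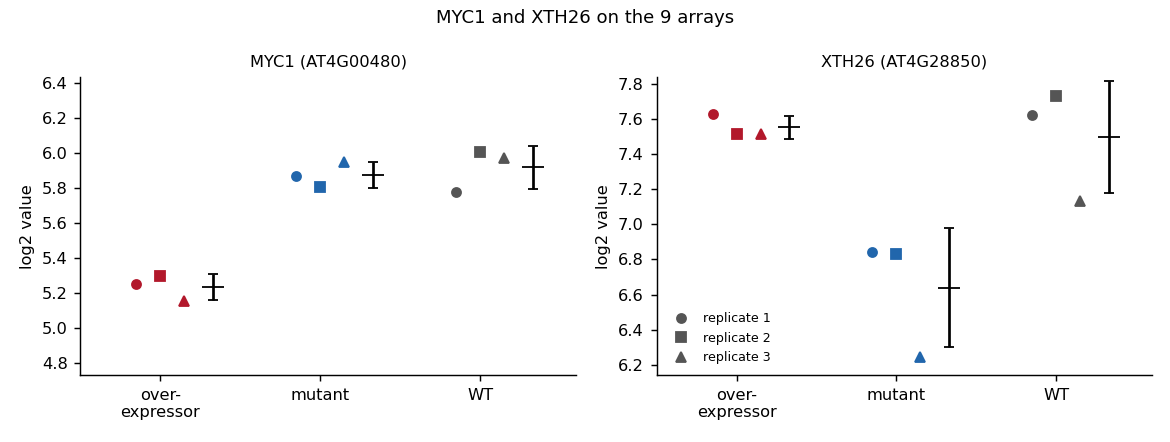
Log2 values of MYC1 and XTH26 on each array (overexpressor, mutant, wild type), with mean ± SD of 3 arrays in black and replicate numbers as symbols; both panels span the same height. MYC1 lies between 5.16 and 5.30 in the overexpressor and between 5.78 and 6.01 on the other 6 arrays, and XTH26 lies between 6.25 and 6.84 in the mutant and between 7.13 and 7.73 on the other 6.

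A root cap marker and a cortex marker passed the test in the overexpressor beside TRY and MYC1. Of 48 listed markers in 6 lists 10 were measured, of which 1 rose, 1 fell and 8 did not pass in the overexpressor against wild type, where 1.35% of all probe sets passed, and their median log2 difference was 0.02 against -0.01 over all probe sets. RCPG (AT1G65570), the 1 measured of 6 root cap markers, encodes a polygalacturonase and lay between 8.04 and 8.34 in the overexpressor, between 6.94 and 7.50 in the mutant and between 6.50 and 6.74 in the wild type (1.57 ± 0.15 against wild type; SE, limma adjusted p = 0.00358). CO2 (AT1G62500), a marker of the cortex, fell to between 2.94 and 3.32 in the overexpressor, below the lower quartile of those arrays, against 3.66 to 4.06 in the wild type (limma adjusted p = 0.0359). That call was lost in 8 of 9 refits that left out 1 array (adjusted p 0.0495 to 0.122) and with only the 6 arrays compared (limma adjusted p = 0.124). Against the mutant the log2 difference of CO2 was -1.11 (limma adjusted p = 0.00624), a call that remained in all 9 refits without 1 array. RCPG differed from the mutant by 0.94 (limma adjusted p = 0.0221), a call lost in 4 of these 9 refits and in 2 of 9 other settings. In the mutant CO2 lay between 4.19 and 4.24, above all wild-type arrays, without passing (limma adjusted p = 0.517). SGN3 of the endodermis, the other measured marker of the cortex and endodermis list, stood at -0.15. The 3 measured of 10 markers of dividing cells, MCM7, AUR1 and AUR2, had mean log2 levels between 9.24 and 9.33 on the overexpressor arrays, 9.31 and 9.48 on the mutant arrays, and 9.34 and 9.37 on the wild-type arrays. The shoot markers RCA and LHCB4.1, measured out of 9, averaged between 7.04 and 7.16 in the overexpressor, 7.16 and 7.25 in the mutant, and 6.93 and 7.16 in the wild type. SWEET11 of the phloem, the 1 measured of 8 vascular markers, ranged between 4.28 and 6.39 in the overexpressor, 3.37 and 4.28 in the mutant, and 4.12 and 4.31 in the wild type. The part of these other cells in the lower TRY and MYC1 values was not tested.

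The genes with profiles most like each member were sought among 7917 other named probe sets above the median level. Probe sets that repeated an earlier one were left out, and MYC1, whose mean lay below that level, was not a candidate. Likeness was measured by Pearson's r of log2 values over the 9 arrays, which 3 genotypes and 1 normalization tie together. For TRY the most alike were AT3G61270 (r = 0.97), AT1G04420 (r = 0.97) and AT5G19740 (r = 0.96), whose r within genotypes, after taking off the genotype means, was 0.71, 0.78 and 0.82. For EXPA7 they were SP1L4 (AT5G15600), PRA1.G1 (AT1G55640) and AT1G59910, with r between 0.96 and 0.97. For EXPA18 they were AT5G42510, AT1G24130 and AT5G52790, the first with r = 0.99, and r = 0.98 within genotypes. The peroxidases led to AT3G06070, AT1G34510 and CKS (AT1G53000) for PRX7, to AT1G11240, AT3G46280 and AT5G44860 for PRX44, and to AT4G12590, AT1G31300 and AT1G76065 for PRX35, with r between 0.93 and 0.96. Among these candidates EXPA18 stood at rank 476 for EXPA7, and TRY at rank 644 for PRX44, so the members were not each other's closest profiles. The closest rank of one member for another was 70, of PRX7 for PRX35 (r = 0.81), followed by 79, of EXPA18 for PRX35.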

How the data were processed

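The authors deposited log2 values per probe set for 9 arrays, normalized between arrays; RMA is the only tool named, per the submitters' processing notes, with version, settings and build not given in the sources used here. No further normalization was applied. RMA fits probes jointly over arrays and makes distributions alike, so a shift common to most genes would not be seen. Arrays have no read depth; precision is limited by their number.

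Gene names came from the platform annotation, matched by gene number to RefSeq (TAIR10.1, names and neighbours only). Linear models were fitted with limma 3.58.1 in R 4.3.3 to all 38408 probe sets and 9 arrays (6 residual and 1.85 prior degrees of freedom), tested on simulated data first; adjusted p is Benjamini-Hochberg over all probe sets, and "rose" and "fell" mean an adjusted p below 0.05. Intervals are at 95% and uncorrected. Named were all measured members, measured genes of 9 lists (112 genes), and the 3 most similar profiles per member. Members and lists were chosen with earlier results of these data known. Sequences were not used here. Alternatives were the repeat number as a block, eBayes trend and robust, 6 arrays only, median centring, quantile normalization, removal of dim probe sets (25th or 50th percentile), probe sets with 1 gene, array weights and leaving out each array.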

Additional observations from a re-analysis of the deposited data

How the results depend on the processing

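TRY decided the count of members called in both comparisons with the overexpressor and in the F test, and each count of 1 became 0 wherever TRY missed the threshold. That was so with the replicate block (adjusted p = 0.112 against wild type, 0.0944 against the mutant and 0.134 in the F test), and against the mutant also with only the 6 arrays compared (0.107). With 1 array left out the counts ranged from 0 to 1. The block also ended the call of CO2 against wild type (adjusted p = 0.0999). The labels do not say whether arrays with the same repeat number belong together. Over all probe sets, 0 of 9 correlations between the deviations of same-numbered arrays were above 0.1 (-0.09 to 0.03). A batch shared by a part of the probe sets was not tested. Over all probe sets the block moved the calls from 520 to 200, from 9 to 1 and from 702 to 347 in the 3 comparisons, and other settings gave 174 to 878, 1 to 13 and 260 to 1211. The direction of TRY against wild type and against the mutant in the overexpressor, and of the medians of the measured members, was kept under every alternative run, and 0 members passed in the mutant against wild type under any.

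Signs turned only for differences near 0. EXPA7 in overexpressor against mutant stood at 0.0254 with arrays centred on their medians and 0.00443 with quantile normalization again, and ranged from -0.0323 to 0.0276 with 1 array left out. TRY in mutant against wild type stood at 0.00641 with array weights and ranged from -0.177 to 0.0847. With 1 array left out, overexpressor against wild type ranged from -0.134 to 0.00226 for EXPA18, -0.0601 to 0.0232 for PRX7, -0.115 to 0.0286 for PRX35 and -0.125 to 0.174 for XTH26, and mutant against wild type from -0.113 to 0.00143 for MYC1. MYC1 kept both calls in all 8 other settings that tested it, and its mean lay under the 50th percentile filter. The differences of the wall genes themselves did not pass with 3 arrays a genotype. The changes planted in the simulated data were larger, so whether differences as small as these could pass was not tested.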

Other observations

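Genes next to TRY on the chromosome did not pass in any comparison: SWEET3 (AT5G53190) stood at -0.15 and SPCH (AT5G53210), the bHLH regulator of stomatal lineage entry, at 0.04 in the overexpressor against wild type (limma adjusted p = 0.815 and 0.886). Both neighbours of PRX7, AT1G30860 and AT1G30880, stood at -0.25 and -0.23 in that comparison (limma adjusted p = 0.168 and 0.16), while PRX7 itself stood at -0.01. AT1G62981, next to EXPA18, stood at -0.36 (limma adjusted p = 0.238). Neighbours were taken from the order of protein-coding genes in RefSeq, and these genes were looked at after the values of the members were known.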
